A study of Homo sapiens with 6 samples.

Results

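SLFN11-knockout and SLFN11-positive parent cells of CCRF-CEM, a human line established from T lymphoblastic leukaemia, were compared after 2 h of 100 nM camptothecin by the regions of open chromatin called in each. The regions are those of the knockout list whose library code is CB45_KO_2 and of the parent list whose code is CCRF_WT2. On chromosomes 1 to 22 and X these lists held 20894 and 23665 merged peaks, 44559 of the 118837 in the 6 lists of the series. The series has 1 library for each combination of genotype (SLFN11 gene knockout or parent) and treatment (DMSO, the solvent, or 100 nM camptothecin for 2 h or 4 h). The knockout carries a code of its own, CB45, and is a single line in these libraries, so its genotype and any other trait of that line cannot be told apart. All cells were grown in the same serum-supplemented medium.

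The treatment of each library is taken from the code shared by its peak identifiers and a sample title. It is not the treatment of the record the list is filed under. The code in the list matched the code in the title of its own record in 0 of 3 knockout and 0 of 3 parent libraries. By the records, both lists compared here are DMSO libraries, and the lists recorded as 2 h carry the codes of 4 h. Each count below therefore holds for these lists, and its label of 2 h of camptothecin rests on the codes. Values for the lists recorded as 2 h are given beside the main counts.

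SLFN11 is a nuclear protein that is drawn to stressed replication forks by the single-strand binding protein RPA, and its presence makes leukaemia cells sensitive to drugs that damage DNA during replication. Camptothecin traps topoisomerase I on the DNA it has cut, and replication forks that run into the trapped enzyme stall or break. In ATAC-seq a transposase inserts sequencing adapters into DNA that is free of packed nucleosomes, so that promoters, enhancers and other open sites appear as peaks of reads. The comparison asks how the set of open sites under replication stress differs between cells without and with SLFN11. Genes, promoters and enhancers were not located, since the peaks are on hg19 and no annotation of that build was used. Sites are named by their hg19 position, counted from 1.

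Fewer open sites were called in knockout than in parent cells at 2 h of camptothecin, with a log2 ratio of peak numbers of -0.18 (95% interval -0.21 to -0.15). Of the knockout peaks, 3224 (15.4%, 14.9 to 15.9%) overlapped no parent peak by even 1 bp and are called added. Of the parent peaks, 6249 (26.4%, 25.8 to 27.0%) overlapped no knockout peak and are called missing. The other 17670 knockout peaks and 17416 parent peaks were shared. Open sites covered 9.09 Mb in the knockout list and 12.1 Mb in the parent list. Added peaks made up 7.99% of the covered length of the knockout list, and missing peaks 13.9% of that of the parent list. Intervals are Wilson intervals for counting error only, neighbouring peaks are not independent, and with 1 library per group no test between genotypes at 2 h alone was possible.

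Unequal list length enters these counts. With only the 20894 most significant peaks of each list kept, 18.9% of knockout peaks were added and 20.2% of parent peaks were missing, shares that lists of equal length bring close together by construction. In the lists recorded as 2 h, 19.4% of knockout peaks were added and 30.2% of parent peaks were missing. Read totals are not part of a peak list, but the number of reads at each summit can be recovered. A peak's fold enrichment and p, both from the authors' peak caller, together fix the pileup of reads at its summit and the local background under a Poisson model. The lowest background was 1.37 reads in the knockout library and 1.29 in the parent library. The median summit pileup of merged peaks was 20.0 reads in the knockout list and 26 in the parent list. The knockout list was thus the shorter of the pair with the lower summits, although its lowest background was the higher, and the part of depth and of signal over background in the counts was not tested.

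The direction of the genotype difference was not the same at every treatment. At DMSO, by the codes, knockout cells had the longer list, with 6794 added peaks (35.2%) against 1643 missing ones (11.6%) and a log2 ratio of 0.44 (0.41 to 0.47). At 4 h of camptothecin 3725 knockout peaks (19.4%) were added and 6528 parent peaks (30.2%) were missing, with a log2 ratio of -0.17 (-0.20 to -0.15). For each added peak there were 0.242 missing ones at DMSO, 1.94 at 2 h and 1.75 at 4 h. Over the 3 treatment-matched pairs the mean log2 ratio was 0.03 (SD 0.36, n = 3), below 0 in 2 of 3 pairs (two-sided exact sign-flip permutation test, p = 1.0, where the smallest p that 3 pairs allow is 0.25). The pairs share no library, but they are different treatments of the same parent and knockout lines. They are not replicates of the genotype difference, and the SD includes differences between treatments. Differences between the pairs were not tested. The parent DMSO list stands apart from the other 5 in length, with 14205 peaks.

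**Figure D1:**
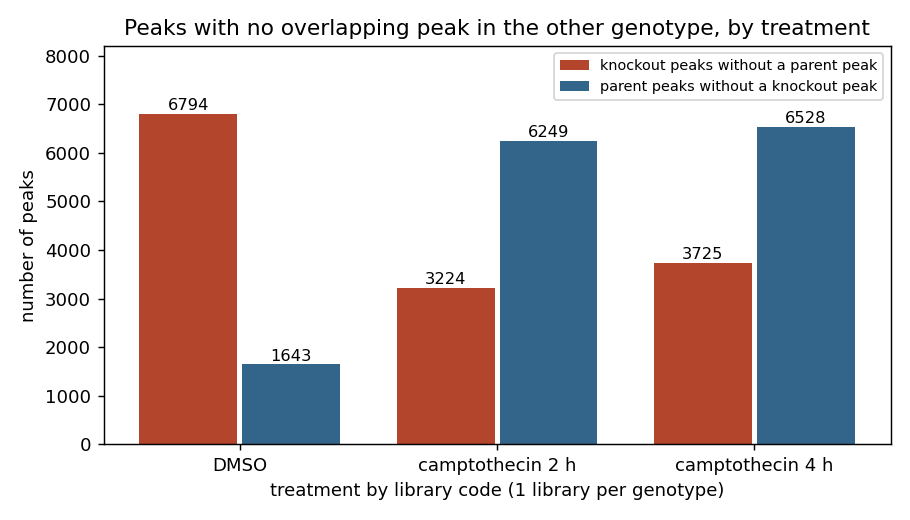
Number of peaks with no overlapping peak in the other genotype, for each treatment by library code, with knockout peaks in red and parent peaks in blue and 1 library per bar. At 2 h of camptothecin 3224 knockout and 6249 parent peaks stood alone, and at DMSO the order was the opposite, with 6794 and 1643.

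The sites that differed were small and low. Added peaks had a median width of 200 bp (quartiles 159 and 265 bp), against 430 bp for the knockout peaks shared with parent cells. Missing peaks had a median width of 231 bp (172 and 324 bp), against 565 bp for the parent peaks shared with knockout cells. The median summit pileup was 11 reads for added peaks and 23 for shared ones in the knockout list. In the parent list it was 13 reads for missing peaks and 36 for shared ones. Only 1.74% of added peaks had more than 1 summit, against 29.4% of shared knockout peaks, and 7.14% of missing peaks did, against 36.3% of shared parent peaks. A -log10 q of 5 or more was reached by 940 added peaks (29.2%), against 81.1% of shared knockout peaks. It was reached by 2986 missing peaks (47.8%), against 91.2% of shared parent peaks. Over the whole lists 15278 of 20894 knockout peaks and 18872 of 23665 parent peaks reached it.

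Each list was ranked by the p its authors gave and divided into 4 parts of equal size, which showed where the differences lie. Among the most significant 5223 knockout peaks, 21 (0.402%, 0.263 to 0.614%) were added, and the share was 2.68%, 17.1% and 41.6% in the next 3 parts. Among the most significant 5916 parent peaks, 12 (0.203%, 0.116 to 0.354%) were missing, followed by 5.16%, 34.4% and 65.8%. The strongest open sites of either genotype were thus nearly all called in the other. Most differing peaks lay in the weaker parts, with 2036 missing peaks in the third part of the parent list and 3896 in the fourth. In the knockout list 891 and 2172 added peaks lay there. Fewer lay in the second parts, where the shares were below those over the lists, 26.4% missing and 15.4% added. The second part of the parent list, with a -log10 q between 12.8 and 29.2 and a median summit pileup of 35 reads, held 305 missing peaks. The second part of the knockout list, between 8.88 and 16.7, held 140 added ones. In the last part of each list summits rested on a median of 11 reads, so that presence or absence there is uncertain.

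Width gave the same order. Knockout peaks under 200 bp were added in 43.4% of cases, and parent peaks of that width were missing in 68.0%. From 300 bp to under 500 bp the shares were 8.12% of knockout peaks and 26.2% of parent peaks. From 500 bp to under 1000 bp they were 0.765% and 4.26%, which is 49 of 6408 knockout peaks and 381 of 8950 parent peaks. None of the 622 knockout peaks of 1000 bp or more was added, a count of 0 that allows a share of up to 0.482%, and 11 of 1645 parent peaks of that width were missing (0.669%, 0.374 to 1.19%).

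**Figure D2:**
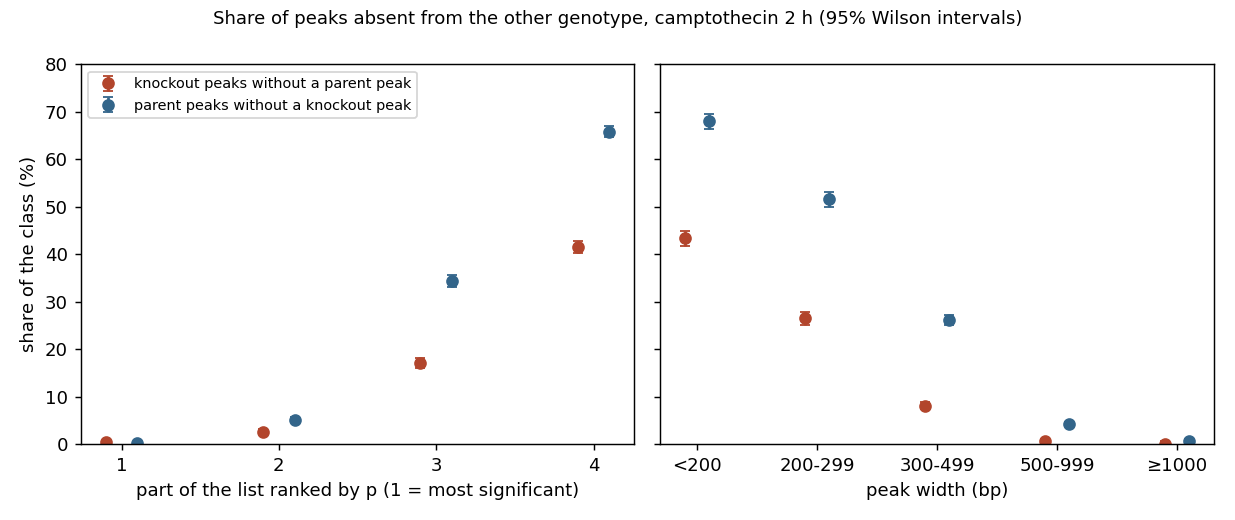
Share of peaks (y axis, percent) that overlap no peak of the other genotype at 2 h of camptothecin, by part of the list, 4 of equal size ranked on p (left) and by peak width in bp (right), knockout peaks in red and parent peaks in blue, with 95% Wilson intervals. The share falls from the weakest to the strongest part and from narrow to wide peaks in both lists, reaching 0.402% and 0.203% among the most significant peaks.

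Sites shared by the genotypes were narrower in knockout cells. At the 16956 sites where a single knockout peak met a single parent peak, the median width was 433 bp in the knockout list and 561 bp in the parent list. The log2 ratio of widths, knockout over parent, had a median of -0.27 (quartiles -0.60 and -0.01). The knockout peak was the narrower at 12868 of these sites (75.9%) and the wider at 4047. The median ratio was below 0 in each width class, though only slightly among the narrowest sites. For sites under 200 bp, judged on the geometric mean of both widths, it was -0.03, with 54.4% narrower in knockout cells. It was -0.37 for those of 300 bp to under 500 bp (76.3% narrower) and -0.16 for those of 1000 bp or more (82.5% narrower). It was also negative on each of the 23 chromosomes, from -0.35 on chromosome 17 to -0.18 on chromosome 18. Summits of paired peaks lay a median of 43 bp apart. At 322 sites a parent peak met more than 1 knockout peak, and at 71 a knockout peak met more than 1 parent peak.

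The sign of this width difference followed that of peak numbers in the other pairs. At 4 h of camptothecin the median log2 width ratio was -0.42 over 14615 sites, with 81.2% narrower in knockout cells. At DMSO it was 0.23 over 12212 sites, with 28.5% narrower. Summit pileup moved with width and number, since its median over merged peaks was 19 reads in the knockout and 17 in the parent library at DMSO, and 18 and 29 at 4 h. Its part in the width difference was not tested.

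**Figure D3:**
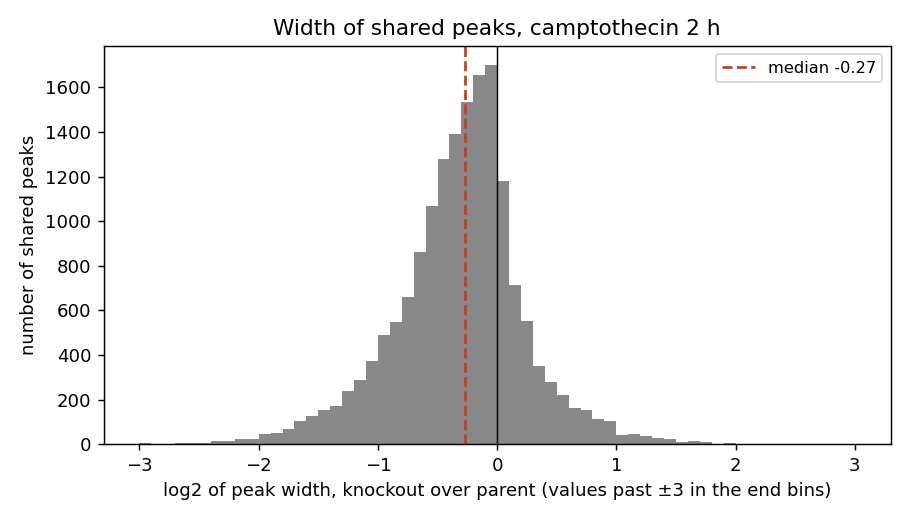
Distribution of the log2 ratio of peak width, knockout over parent, over the 16956 shared sites where 1 peak meets 1 peak at 2 h of camptothecin (x axis, bins of 0.1, and y axis, number of sites). The median, drawn as a dashed line, is -0.27, and most sites lie below 0, where the knockout peak is the narrower.

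Differing sites were spread over all chromosomes, and added peaks were far less even than missing ones. The share of knockout peaks that were added was lowest on chromosomes 19 (6.12%, 4.81 to 7.76%) and 17 (7.51%, 6.03 to 9.33%), and highest on chromosomes 18 (26.8%, 22.7 to 31.4%), 21 (24.1%) and 4 (21.1%), against 15.4% over the list. Chromosomes 17 and 19 are known for a high density of genes, and chromosomes 4, 18 and 21 for a low one. The share of parent peaks that were missing ran only from 22.7% on chromosome 16 to 31.1% on chromosome 18, against 26.4% over the list, and was 25.0% on chromosome 19 and 27.6% on chromosome 17. Knockout peaks were therefore fewest relative to parent peaks on chromosomes 17 and 19, where the log2 ratios of peak numbers were -0.33 and -0.31, and nearly as many on chromosomes 4 (-0.05) and 18 (-0.06).

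**Figure D4:**
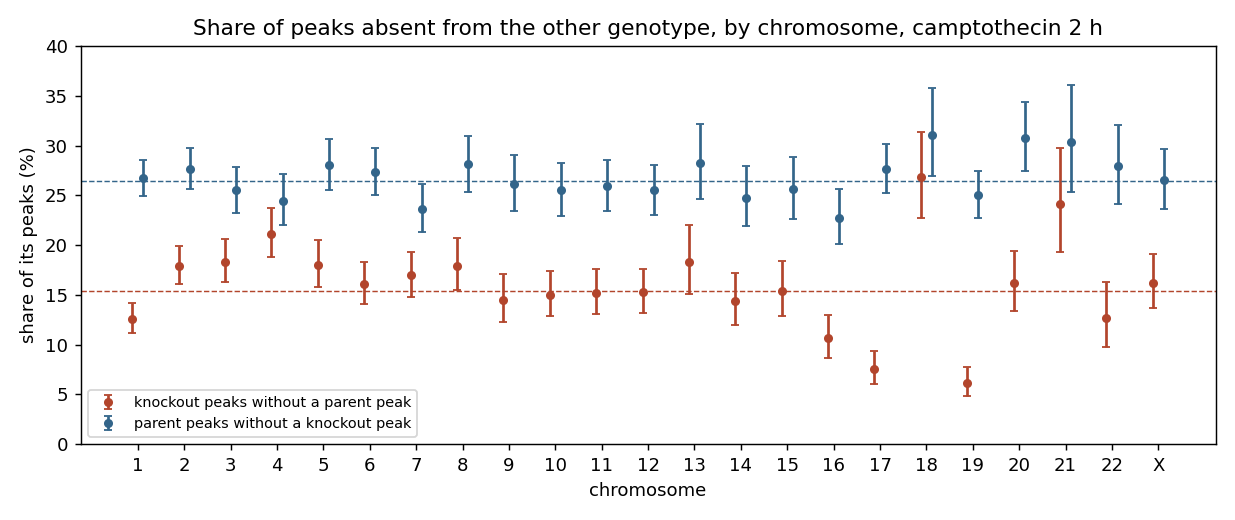
Share of the peaks of each chromosome that overlap no peak of the other genotype at 2 h of camptothecin (y axis, percent), knockout peaks in red and parent peaks in blue, with 95% Wilson intervals and the share over the whole list as a dashed line. Added knockout peaks dip to 7.51% and 6.12% on chromosomes 17 and 19 and reach 26.8% on chromosome 18, whereas missing parent peaks stay between 22.7% and 31.1%.

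Grouped after the values were seen, chromosomes 17 and 19 had 6.80% of their knockout peaks added (5.78 to 7.99%), against 16.4% on the 21 others (15.8 to 16.9%). Parent peaks were missing there in 26.3% of cases and on the others in 26.4%, although at like significance the shares were apart, with 41.5% (37.7 to 45.5%) and 33.6% (32.4 to 34.9%) in the third part of the parent list and 71.7% and 65.3% in the fourth. The contrast in added peaks was also there among peaks of like significance. In the third part of the knockout list 7.83% were added on chromosomes 17 and 19 and 18% on the others, and in the fourth 23.7% and 43.0%. In lists of equal length the added share was 10.6% on chromosome 17, 8.07% on chromosome 19 and 30.9% on chromosome 18. The pair at 4 h of camptothecin had the same contrast in added peaks, 5.52% on chromosomes 17 and 19 and 20.8% on the others, while the DMSO pair had none, with 35.5% and 35.2%. Missing peaks behaved otherwise, with 38.1% on chromosomes 17 and 19 and 29.1% on the others at 4 h, and 8.34% and 11.9% at DMSO. None of these differences between treatments was tested.

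A gradient in the same direction appeared along the genome when windows of 1 Mb were ranked by how many open regions the other 4 libraries held in them. A site that another library holds counts in its own window. Of added peaks 46.5% were held by no other library, against 2.19% of shared knockout peaks. Part of the gradient can thus arise by construction, and how large a part was not tested. In windows with up to 4 regions of the other libraries 31.7% of knockout peaks were added (29.2 to 34.3%). The share was 20.8% for 5 to 8 regions, 16.6% for 9 to 14 and 11.4% for more than 14 (10.8 to 12.0%). Missing parent peaks made up 31.7%, 25.9%, 25.7% and 26.3% in the same order, so that beyond the sparsest windows their share stayed within 25.7 to 26.3%. Among knockout peaks of the fourth part by significance, the added share was 66.3% in the sparsest and 33.0% in the densest windows, and among those of the third part it was 34.8% and 12.5%. For the parent list the third part ran the other way, with 30.9% missing in the sparsest and 37.1% in the densest windows. The narrowing of shared sites was also greater in dense windows, with a median log2 width ratio of -0.30 against -0.20 in the sparsest.

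No window of 1 Mb with at least 10 peaks differed in all its sites, and the highest share was 70.0% in both lists. Of 838 windows of 1 Mb with at least 10 knockout peaks, the median share added was 10.0%, and 155 windows (18.5%) had no added peak. Of 967 such windows for the parent list the median share missing was 26.7%, and 19 (1.96%) had no missing peak. At least 50% of the peaks were added in 9 windows and missing in 48. The window with the highest added share was on chromosome 2, between 158 and 159 Mb, with 7 of 10 knockout peaks added and 3 peaks in the parent list. Next came chromosome 20, 29 to 30 Mb, with 6 of 10, and chromosome 21, 10 to 11 Mb, with 7 of 12. The highest missing shares were on chromosome 1, 168 to 169 Mb, with 7 of 10 parent peaks missing, on chromosome X, 71 to 72 Mb, with 9 of 13, and on chromosome 20, 17 to 18 Mb, with 7 of 11. The window on chromosome 18 between 77 and 78 Mb had the most missing peaks of these leading windows, 15 of 24 (62.5%, 42.7 to 78.8%). Windows of so few peaks have wide intervals, and the highest of many are high in part by selection.

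Unbroken runs of differing peaks had few members. The longest runs of consecutive missing parent peaks had 7 members, on chromosome 17 from 78694867 to 78807152 (112 kb) and on chromosome 20 from 62362232 to 62495826 (134 kb). The longest run of added knockout peaks had 6, on chromosome 12 from 4938577 to 6041087, and spread over 1103 kb. Runs of 5 or more numbered 8 in the knockout list and 26 in the parent list. Added peaks lay a median of 27.2 kb from the nearest parent peak, and missing peaks 19 kb from the nearest knockout peak. Only 236 added (7.32%) and 440 missing peaks (7.04%) had a peak of the other list within 500 bp, so for most of them the nearest counterpart lay farther off.

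The other 4 libraries show how many of these sites recur. Of the added knockout peaks, 1498 (46.5%, against 9.02% of all knockout peaks) were held by no other library. Knockout cells held 944 (29.3%, against 76.9%) at DMSO and 963 (29.9%, against 76.0%) at 4 h. Parent cells held 358 of them (11.1%, against 61.0%) at DMSO and 589 (18.3%, against 79.6%) at 4 h. Of the missing parent peaks, 2465 (39.4%, against 12.0% of all parent peaks) were held by no other library. Knockout cells held 1365 of them (21.8%, against 69.2%) at DMSO and 1223 (19.6%, against 67.8%) at 4 h. Parent cells held 568 (9.09%, against 54.6%) at DMSO and 2873 (46.0%, against 79.1%) at 4 h. A knockout library other than that of 2 h thus called 2023 of the missing sites (32.4%, against 76.7% of all parent peaks). A parent library other than that of 2 h called 830 of the added ones (25.7%, against 83.2% of all knockout peaks). Differing sites thus recurred less often than the lists as a whole. Sites that another library of the lacking genotype called are not absent from that genotype as a whole.

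**Figure D5:**
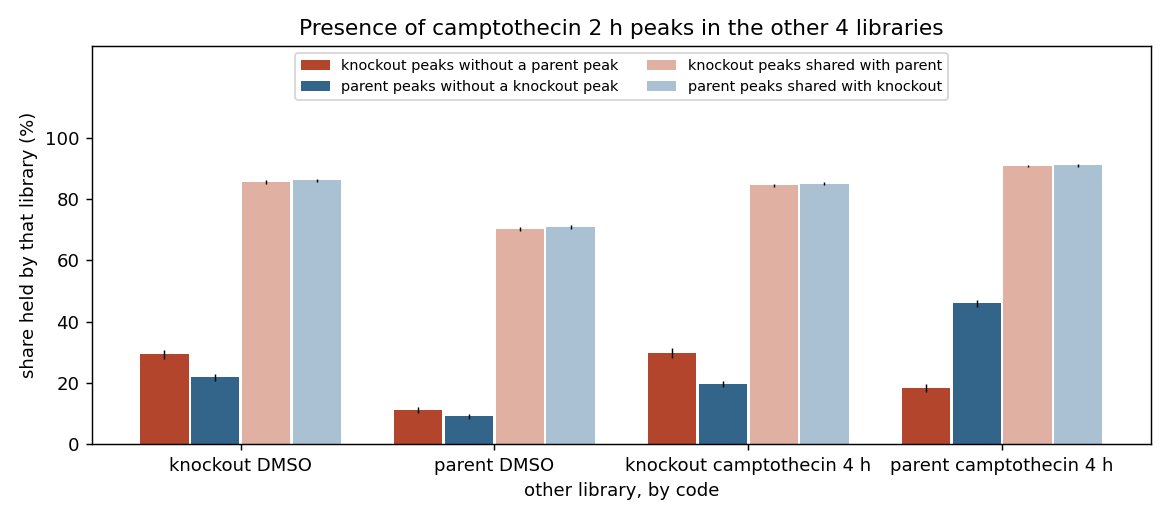
Share of the 2 h camptothecin peaks (y axis, percent, with 95% Wilson intervals) that each of the other 4 libraries also holds, for peaks without and with a counterpart in the other genotype. Parent peaks missing from knockout cells were held most often by the parent library of 4 h, in 46.0% of cases, as were shared parent peaks, in 91.0%. Each of the 4 held 70.2 to 91.0% of shared peaks.

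Where a differing site could be looked up again in the other pairs, the genotypes differed there more often than at sites shared at 2 h. Of the 2873 missing sites with a parent peak at 4 h, 2127 (74.0%, 72.4 to 75.6%) had no knockout peak at 4 h either, against 1908 of 15844 (12.0%) for sites that the genotypes shared at 2 h. Of the 568 with a parent peak at DMSO, 289 (50.9%, 46.8 to 55.0%) had no knockout peak at DMSO, against 4.26% of shared sites. Of the 963 added sites with a knockout peak at 4 h, 719 (74.7%) had no parent peak at 4 h, against 6.06% of shared ones. At DMSO the numbers were 743 of 944 (78.7%) and 21.6%. Over the whole parent list of 2 h, shares found in the same way were 21.6% at 4 h and 6.31% at DMSO. Over the whole knockout list they were 10.2% and 25.0%. Shared sites are the more significant ones, so the comparison was repeated among peaks of like rank, a step chosen after the values were seen. Rank is that in the list that holds the peak, so strength in the other genotype was not matched. Shared sites were defined by a peak of the other genotype at 2 h. Part of the gap can thus arise by construction, and how large a part was not tested. In the third part of the knockout list 74.1% of added and 11.2% of shared sites lacked a parent peak at 4 h. At DMSO the gap was smaller, with 75.1% and 42.2% in that part and 84.4% and 60.6% in the fourth. In the third part of the parent list 69.9% of missing and 28.2% of shared sites lacked a knockout peak at 4 h, and 122 of 244 missing and 12.8% of shared sites lacked one at DMSO. Among stronger parent peaks, those of the second part, 56.3% of missing sites lacked a knockout peak at 4 h and 37.5% at DMSO, against 8.59% and 3.60% of shared ones.

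Sites that the DMSO library of the same genotype lacks, by the codes, were far more often without a counterpart in the other genotype than sites it holds. Of the 10739 parent peaks at 2 h that the parent DMSO list lacks, 5681 (52.9%, 52.0 to 53.8%) had no knockout peak, against 4.39% of the 12926 that it holds. The corresponding share for the knockout list was 47.2% of the 4827 peaks absent from the knockout DMSO list and 5.88% of the others. The peaks new at 2 h were narrow, with a median width of 207 bp in knockout and 277 bp in parent cells, and the parent DMSO list is the shortest of all. Set against the parent list of 4 h in its place, 68.2% of the 4948 parent peaks that it lacks and 15.3% of the 18717 that it holds had no knockout peak. Among parent peaks absent at DMSO and called again at 4 h, 38.8% of 6527 had no knockout peak at 2 h, against 26.4% of all parent peaks. Among knockout peaks of that kind 29.8% of 1646 had no parent peak, against 15.4% of all knockout peaks. Both kinds were weak, with a median -log10 q of 8.22 in the parent and 4.98 in the knockout list. Peaks that both other lists of the same genotype held had 28.0 and 13.1. Added peaks called in knockout cells at 2 h and 4 h and in no other library numbered 356 (11% of added peaks, against 2.71% of all knockout peaks with this pattern in the other 4 libraries). Missing peaks called in parent cells at 2 h and 4 h and in no other library numbered 1566 (25.1% of missing peaks, against 9.71% of all parent peaks). By the sample records these libraries would be DMSO and 2 h, and the library taken here as DMSO would be 4 h.

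Few sites followed genotype in every library. There were 235 added peaks that both other knockout libraries and no parent library held (7.29%, against 2.58% of all knockout peaks with this pattern in the other 4 libraries). There were 104 missing peaks that both other parent libraries and no knockout library held (1.66%, against 1.07% of all parent peaks). Both other knockout libraries and neither other parent library held 128 missing peaks (2.05%, against 1.8% of all parent peaks). The order of these counts was the same over the whole parent list, where 254 and 426 peaks had these patterns in the other 4 libraries.

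Among the added peaks of at least 300 bp, the 10 with the highest fold enrichment in the knockout list reached 7.71 to 10.1-fold and rested on 18 to 27 reads at the summit. Of these, 9 were also called in knockout cells at 4 h and 3 in parent cells at 4 h. Over the whole knockout list those libraries held 76.0% and 79.6% of peaks. The second part of that list by significance had 5224 peaks. The knockout library of 4 h held 105 of its 140 added peaks and 4851 of its shared ones. Added peaks of that part were thus held at 4 h less often than shared ones. The highest of the 10 lay on chromosome 3 from 190024535 to 190024841, with 10.1-fold and 27 reads over a background of 1.78. It was called in knockout cells at DMSO (9.15-fold) and 4 h (6.35-fold) and in no parent library. The site on chromosome 7 from 89699691 to 89700065 followed with 9.90-fold, recurring only in knockout cells at 4 h (7.93-fold), and its nearest parent peak was 276 kb away. Sites on chromosome 5 from 128988498 to 128988823 (9.23-fold) and chromosome 15 from 48332460 to 48332786 (8.48-fold) were likewise held by all 3 knockout libraries and by no parent library. The site on chromosome 3 from 147034955 to 147035498, at 8.44-fold and 544 bp, was in no other list. By contrast, the site on chromosome 4 from 171180759 to 171181079 (7.84-fold) was called in all 4 other libraries, so that the parent list of 2 h was the only one to lack it.

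The widest added peaks were between 676 and 750 bp. The widest, on chromosome 4 from 187292598 to 187293347, had 5.67-fold on 13 reads and no counterpart anywhere. A peak of 716 bp with 3 summits on chromosome 5 from 1098155 to 1098870 (6.88-fold, 29 reads) was held by all 3 knockout libraries and by no parent library, with 5.53-fold at DMSO and 5.84-fold at 4 h. Also on chromosome 5, a peak from 1272788 to 1273492 (4.39-fold) was also called at DMSO in knockout and in parent cells.

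The 10 highest missing peaks of at least 300 bp reached 10.3 to 12.1-fold in the parent list on 32 to 47 reads. Knockout cells called 6 of them at DMSO and 7 at 4 h, and parent cells called all 10 again at 4 h. Over the whole parent list those libraries held 69.2%, 67.8% and 79.1% of peaks. The second part of that list by significance had 5916 peaks. The parent library of 4 h held 279 of its 305 missing peaks and 5565 of its shared ones. Missing peaks of that part were thus held at 4 h less often than shared ones. The site on chromosome 12 from 120739986 to 120740367 was called in knockout cells at DMSO (5.29-fold) and 4 h (5.51-fold), and had 11.6-fold on 35 reads in the parent list of 2 h and 8.46-fold in that of 4 h. The site on chromosome 10 from 119590327 to 119590652 had 11.1-fold on 32 reads and was otherwise called only in parent cells at 4 h (3.84-fold), with the nearest knockout peak 215 kb away. The site on chromosome 1 from 27216454 to 27217082, 629 bp wide with 10.4-fold on 33 reads, was held by all 3 parent libraries and by no knockout library. The sites on chromosome 6 from 42185512 to 42185912 (11.0-fold) and chromosome 11 from 96076374 to 96076756 (10.5-fold) were called in all 4 other libraries, so that the knockout list of 2 h was the only one to lack them.

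The widest missing peaks were between 1076 and 1188 bp. The site on chromosome 10 from 13141324 to 13142399 was called in knockout cells at DMSO (5.84-fold), and the parent list had 7.42-fold on 34 reads at 2 h and 10.7-fold at 4 h. On chromosome 7 from 50343643 to 50344718 the fold was 4.14 on 25 reads, and the site was called at 4 h in knockout cells (3.79-fold) and in parent cells (5.02-fold). The widest of all, on chromosome 3 from 105087583 to 105088770, had 4 summits and 3.38-fold over a background of 7.29 reads, and all 4 other libraries held it. These folds are the authors' values within each list and are not compared in size between libraries.

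Without a lower limit on width, the highest differing peaks were of another kind. The 5 highest missing peaks were all 136 to 168 bp wide, with 13.3 to 30.2-fold on 52 to 125 reads, and each was called in at least 1 other library. Of the 5 highest added peaks, between 133 and 233 bp wide, 3 were no wider than 170 bp, with 13.0 to 18.2-fold on 61 to 121 reads. Peaks of 170 bp or less made up 10.7% of the knockout list and 9.20% of the parent list, but 32.9% of added and 24.5% of missing peaks. The added peak on chromosome X from 61881320 to 61881552 (18.2-fold) was called in the knockout library of 2 h alone. Repeated and poorly mappable sequence was not removed here, and whether it gives rise to these narrow, high peaks was not tested.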

How the data were processed

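ATAC-seq was done on nuclei of treated cells, per the labels' protocols. The submitters' processing notes list MACS2 2.1.2, BWA 0.7.17, Picard 2.9.2, SAMtools 1.8, Trim Galore 0.6.2, Trimmomatic 0.39 and hg19 without their roles. The transposase offset, the treatment of duplicates and the background model, each of which can move peak edges and numbers, are not given in the sources used. The authors deposited 1 peak list per library. Its score is 10 times the -log10 q, as the deposited values show. The deposited fold enrichment is the caller's ratio over local background. The deposited -log10 p and -log10 q come from the same caller, with a lowest -log10 q of 2.0.

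Of the 28251 knockout and 33916 parent entries, 0.552% and 0.445% lay on the mitochondrial genome or chromosome Y and were left out. Overlapping entries of a list were merged, keeping the highest fold. Recovered pileups were within 0.02 of a whole number for 99.99% of entries in both lists, and read totals were not used. Named peaks are, per direction, the 10 of highest fold among those of at least 300 bp, the 5 widest and the 5 highest of any width, and the text gives some of each. Members, lists and rules were chosen with earlier results of these data known. The planned shares for promoters, gene lists, cell type markers and motifs were not computed, because the gene table at hand is on another build, so the labelled cell type was not checked against markers. Merging, overlap and pileup recovery were tested on simulated data. Alternatives were the sample records, a stricter -log10 q, other overlaps, equal lengths, unmerged entries and wide peaks. Python 3.11.15, pandas 2.3.3, NumPy 2.4.6, SciPy 1.17.1 and Matplotlib 3.10.9 were used.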

Additional observations from a re-analysis of the deposited data

Results flagged for a closer look

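The log2 ratio of peak numbers, knockout over parent, was -0.18 at 2 h of camptothecin and 0.44 at DMSO, by the library codes. The opposite signs brought this to attention, with 1 library per group, and the difference between the treatments was not tested. By the sample records the first value belongs to DMSO and the second to 4 h.

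Entries outside chromosomes 1 to 22 and X, on the mitochondrial genome or chromosome Y, numbered 156 in the knockout list and 151 in the parent list and entered no comparison.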

How the results depend on the processing

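The log2 ratio of peak numbers was below 0 under every other setting listed here that gave a value for 2 h, but not all could change it. An overlap of 50%, or a peak within 500 bp counted as shared, leaves list lengths as they are, so -0.18 holds there by construction. Placement by sample record takes the pair coded 4 h, with -0.17. The ratio was -0.30 with a -log10 q of at least 5, -0.27 for entries as deposited and -0.31 for peaks of at least 300 bp. These settings count by significance, number of summits or width. Knockout peaks had lower summits and a smaller median width (381 against 452 bp), and fewer had more than 1 summit (25.2% against 28.6%). The lower ratios are thus not independent of these traits. Both forms of the -log10 q limit count the same peaks and so give 1 ratio. Lists of equal length give no ratio by construction. The share of knockout peaks added was 19.4% by sample record, 10.4% with a -log10 q of at least 5 in both lists and 6.15% with that limit in the list that holds the peak. It was 17.1% with an overlap of 50% of the shorter peak, 14.3% when a peak within 500 bp counts as shared, 18.9% in lists of equal length, 11.7% for entries as deposited and 4.15% for peaks of at least 300 bp. The share of parent peaks missing was, in the same order, 30.2%, 27.8%, 15.8%, 27.8%, 24.5%, 20.2%, 20.0% and 11.6%. The missing share was above the added one in each, by little in lists of equal length.

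Median widths of added and of shared knockout peaks were 259 and 496 bp with a -log10 q of at least 5 in both lists, and 207 and 441 bp in lists of equal length. Shared knockout peaks had 435 bp with an overlap of 50%. Median widths of missing and of shared parent peaks were 324 and 629 bp with the -log10 q limit and 266 and 581 bp in lists of equal length, and shared ones had 572 bp with an overlap of 50%. Differing peaks were narrower than shared ones throughout. The promoter alternatives were not run, for want of positions of genes on hg19. The only pairing is by treatment, since each group has 1 library, and over these 3 pairs, an alternative chosen after seeing the data, the mean log2 ratio was 0.03 and so turned in sign, since the DMSO pair stands at 0.44. Weak peaks are set by few reads, and no alternative can stand in for a second library.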
